A study of Homo sapiens with 6 samples.

Results

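The genes described here are the epidermal growth factor (EGF) receptors EGFR, ERBB3 and ERBB4 and the ligands AREG, EREG, HBEGF, TGFA, BTC and NRG1, measured in SKOV-3 cells, an established human ovarian cancer line. All probes whose single symbol in the platform table was one of these 9 names were taken, which gave 20 of the 47314 probes on the array, for 8 of 20043 named genes. AREG was not analysed here. The 6 arrays came from 3 samples transfected with a scramble siRNA (siCtrl) and 3 transfected with siRNA against HBO1 (siHBO1), the histone acetyltransferase encoded by KAT7. All RNA was collected 48 h after transfection from cells of the 1 line, with no other treatment given in the labels. Separate cultures, slides or scan batches are not named in the labels, so each p-value reflects only how these samples differ among themselves, a spread that could be technical.

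EGF-family ligands are made as membrane-anchored precursors, and metalloproteases of the ADAM group release their receptor-binding part. HBEGF, TGFA, BTC, EREG and AREG bind EGFR, and BTC, EREG and HBEGF also bind ERBB4. NRG1 binds ERBB3 and ERBB4. ERBB2 has no known ligand and signals in pairs with the other receptors, and ERBB3 has a kinase domain of very weak activity and relies on its partner. Receptor pairs signal through RAS and ERK, which induce feedback genes such as DUSP6 and the Sprouty genes, and through PI3 kinase. SKOV-3 is known for its amplified ERBB2.

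Values are log2 normalized intensities after background correction, and a probe was called detected on an array at a detection p-value under 0.05. A probe's brightness depends on its own sequence, so no gene's level was set against another's. Of the 20 probes, 8 passed the filter of detection on at least 3 of the 6 arrays and were tested, for EGFR, HBEGF, TGFA, BTC and NRG1. The arrays detected between 42.2% and 44.3% of all probes, with mean signals from 643 to 744. KAT7, the targeted gene, had log2 values of 5.93, 6.49 and 6.45 on siCtrl 1 to 3 and 4.77, 5.22 and 5.45 on siHBO1 1 to 3, which do not overlap. Groups without overlap were also seen for 9.98% of all tested probes. In the test of siHBO1 against siCtrl, KAT7 changed by -1.14 log2 (SE 0.25; limma p 0.0013, adjusted p 0.999). It was thus lower on the siHBO1 arrays but did not pass an adjusted p under 0.05. The KAT7 probe was detected on 3 of 3 siCtrl and 1 of 3 siHBO1 arrays. Of 12 markers of ovarian carcinoma cells, 10 were detected on all 6 arrays, among them PAX8, KRT7, KRT8 and EPCAM, while CDH1 was detected on 0 arrays and MUC16 on 1. Markers of other cell types were sparse, with 1 of 5 leukocyte markers (CD14), 0 of 3 endothelial and 2 of 5 fibroblast markers (COL1A1 and COL1A2) detected on all 6 arrays.

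ERBB3 and ERBB4 were at or near background. ERBB4, a receptor of NRG1 and BTC, has 1 probe, and its detection p ranged from 0.614 to 0.986 over the 6 arrays. ERBB3, the other receptor of NRG1, has 3 probes, and 2 of them were detected on 0 arrays. The third, ILMN_1737993, was detected on siCtrl 1 (p 0.0234), while its p on the other arrays ran from 0.126 to 0.232. EREG, an EGFR ligand, was detected on siCtrl 1 (p 0.0104) and siHBO1 1 (p 0.0117). On siCtrl 2 and 3 and on siHBO1 2 and 3 its detection p was 0.0701, 0.222, 0.117 and 0.0623. Of the 7 NRG1 probes, 4 were detected on 0 arrays, and ILMN_1811954 was detected on siCtrl 2 and siHBO1 2. These 12 untested probes, of which 9 were never detected, have no fold change.

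**Figure D1:**
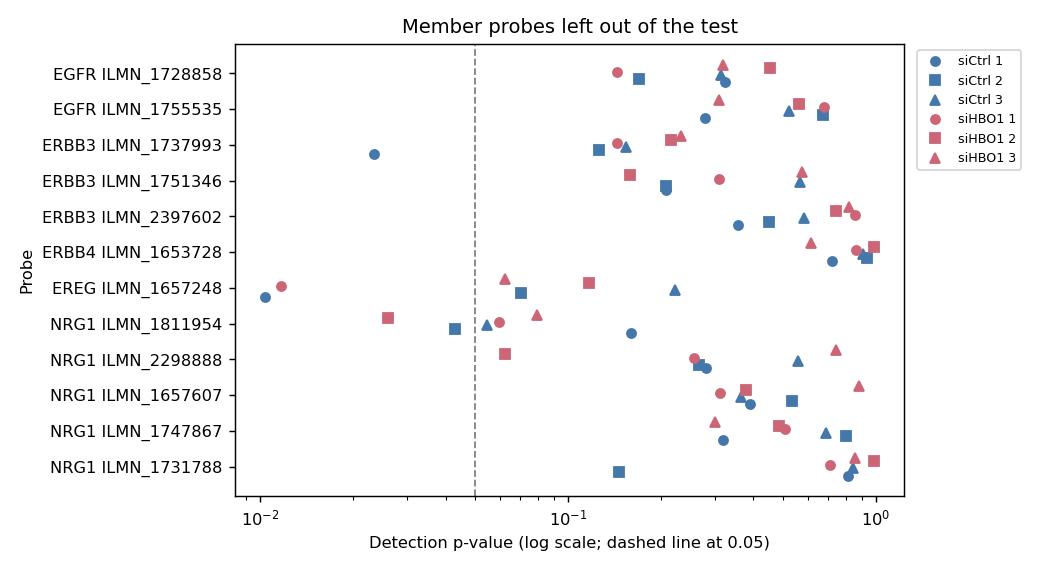
Detection p-values (log scale) of the 12 member probes left out of the test, 1 point per array, blue for siCtrl and red for siHBO1 with the replicate shown by shape; the dashed line is at 0.05. The EREG probe lies left of the line on siCtrl 1 (0.0104) and siHBO1 1 (0.0117), and the ERBB4 probe lies at 0.614 or above on all 6 arrays.

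EGFR, the receptor of most of these ligands, was steady across the arrays. Its brightest probe, ILMN_1798975, listed against the full-length transcript, read 9.27, 9.37 and 9.05 on siCtrl 1 to 3 and 9.23, 9.34 and 9.08 on siHBO1 1 to 3. The whole range over the 6 arrays was 1.25-fold, and the groups overlap. A dimmer probe, ILMN_1696521, is listed against a transcript of a truncated, secreted receptor. It read 6.18, 6.11 and 6.26 on siCtrl 1 to 3 and 6.63, 5.98 and 6.48 on siHBO1 1 to 3, with siHBO1 2 lowest and siHBO1 1 highest. The EGFR probes ordered 4 of the 15 possible pairs of arrays the same way. ILMN_1755535, listed against the same transcript as the dimmer probe, and ILMN_1728858 were detected on 0 arrays.

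HBEGF, a heparin-binding ligand that cells release on stress and injury, varied most among the 8 tested probes. It read 10.45, 8.71 and 8.49 on siCtrl 1 to 3 and 10.44, 10.24 and 8.01 on siHBO1 1 to 3. The arrays fell into 2 sets that cut across the siRNA groups, with siCtrl 1, siHBO1 1 and siHBO1 2 high and the other 3 low, and a gap of 1.54 log2 between the sets against ranges of 0.21 and 0.69 within them. The range over the 6 arrays was 5.41-fold, and in the intensities as deposited, before background correction, the highest array was 3.85-fold above the lowest. Within a group the SD was 1.07 (siCtrl, n = 3) and 1.35 (siHBO1, n = 3). The residual SD about the group means was larger than that of 99.7% of the 20744 probes tested.

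TGFA, a ligand of EGFR known from many carcinomas, has a pair of tested probes that ordered 14 of 15 pairs of arrays alike. ILMN_2083946 read 9.87, 8.70 and 8.49 on siCtrl 1 to 3 and 9.60, 9.35 and 7.92 on siHBO1 1 to 3. ILMN_1805175 read 9.83, 8.49 and 8.53 on siCtrl 1 to 3 and 9.61, 9.25 and 8.09 on siHBO1 1 to 3. Both were highest on siCtrl 1 and lowest on siHBO1 3, and both had the same 3 arrays on top as HBEGF. Their ranges over the 6 arrays were 3.84-fold and 3.33-fold. Their residual SDs exceeded those of 98.7% and 98.4% of all tested probes.

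BTC, betacellulin, was dim. Its probe was detected on siCtrl 1 (p 0.0312), siHBO1 1 (p 0.0026) and siHBO1 3 (p 0.0325). It read 5.43, 5.02 and 5.27 on siCtrl 1 to 3 and 6.10, 5.09 and 5.37 on siHBO1 1 to 3, so that siHBO1 1 stands above the other 5 arrays. EPGN, EREG, AREG and BTC lie in this order next to each other on chromosome 4 with no other protein-coding gene between them in RefSeq (GRCh38.p14). Of these neighbours, BTC and EREG had their lowest detection p on siCtrl 1 and siHBO1 1. For BTC the p on siHBO1 3 was nearly that on siCtrl 1, while EREG was not detected on siHBO1 3 (p 0.0623). Both genes were near background, and a shared pattern was not tested.

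NRG1, neuregulin 1, was highest on siCtrl 2 and siCtrl 3 by both of its tested probes. ILMN_1844593 read 9.77, 10.59 and 10.65 on siCtrl 1 to 3 and 9.51, 9.99 and 9.81 on siHBO1 1 to 3. ILMN_1737252 read 7.81, 8.78 and 8.64 on siCtrl 1 to 3 and 7.50, 8.45 and 8.13 on siHBO1 1 to 3. Both probes had siHBO1 1 lowest and siCtrl 1 next, and they ordered 14 of 15 pairs of arrays alike. In neither did the groups separate, since siCtrl 1 lay below siHBO1 2 and siHBO1 3. Compared by replicate number, siHBO1 read lower than siCtrl at each number by both probes. The labels name nothing that arrays of the same number share. ILMN_2298888, listed against the same transcript as ILMN_1737252, was detected on 0 arrays.

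**Figure D2:**
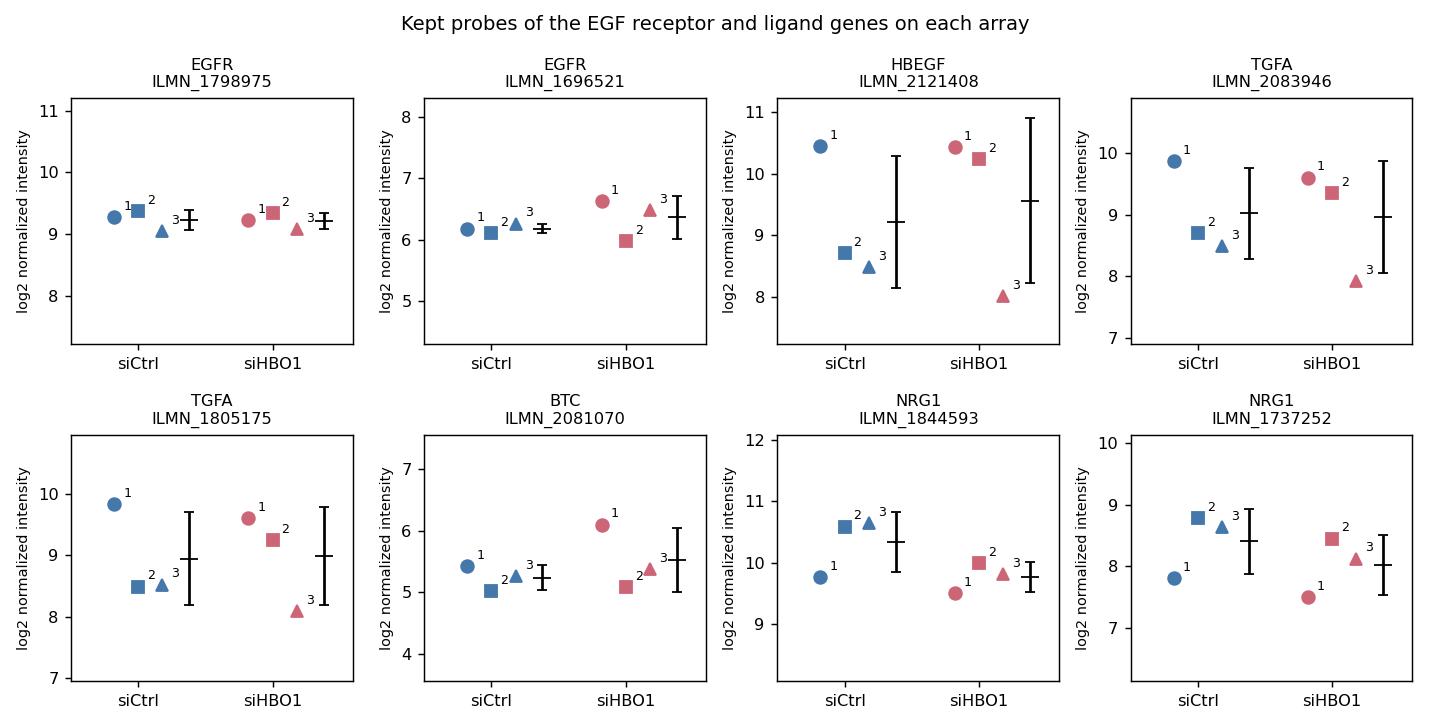
Log2 normalized intensity of the 8 tested member probes, 1 panel per probe with axes of equal span; blue points are siCtrl and red points siHBO1 arrays with the replicate number beside each, and black bars give the mean and SD (n = 3). HBEGF spans 8.01 to 10.45 with both groups split, while EGFR by ILMN_1798975 stays between 9.05 and 9.37.

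HBEGF and TGFA ordered the arrays identically. For HBEGF and TGFA by ILMN_2083946 the order from high to low was siCtrl 1, siHBO1 1, siHBO1 2, siCtrl 2, siCtrl 3 and siHBO1 3, so 15 of 15 pairs of arrays agreed, and by ILMN_1805175 14 of 15 did. NRG1 ran mostly the other way, with 11 of 15 pairs opposite to HBEGF by ILMN_1844593 and 10 of 15 by ILMN_1737252. EGFR by ILMN_1798975 and BTC each had 9 pairs in the same order as HBEGF. Since the arrays fall into separate sets in HBEGF, in TGFA by ILMN_1805175 and in NRG1 by ILMN_1844593, no correlation is given for these probes.

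Among the probes without such sets, 9 pairs of probes of different genes were correlated over the 6 arrays, and 0 passed an adjusted p under 0.05. TGFA by ILMN_2083946 and NRG1 by ILMN_1737252 entered although the other tested probe of each gene fell into sets. Each ordered 14 of 15 pairs of arrays like that other probe, so their r can carry much of the same difference between arrays. BTC was not detected on 3 of the 6 arrays, so its order there is one of background values. BTC and NRG1 (ILMN_1737252) gave Pearson r of -0.89 (exact permutation p 0.0069, adjusted 0.0625) and Spearman rho of -0.94 (exact permutation p 0.0167, adjusted 0.15). Without siCtrl 2 and siHBO1 1, the arrays farthest from the median of BTC, r was -0.74. EGFR by its dimmer probe and BTC gave r of 0.85 (exact permutation p 0.0194, adjusted 0.0875) and rho of 0.77 (exact permutation p 0.103, adjusted 0.463), and r was 0.64 without siHBO1 1 and siHBO1 3. With detection on all 6 arrays required, BTC dropped out, and the smallest adjusted p of the 5 pairs left was 0.447 (exact permutation). EGFR by ILMN_1798975 and TGFA gave r of 0.57 (exact permutation p 0.251, adjusted 0.483) and rho of 0.43 (exact permutation p 0.419, adjusted 0.539). That relation turned to -0.84 without siCtrl 3 and siHBO1 3, so it rests on those arrays.

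**Figure D3:**
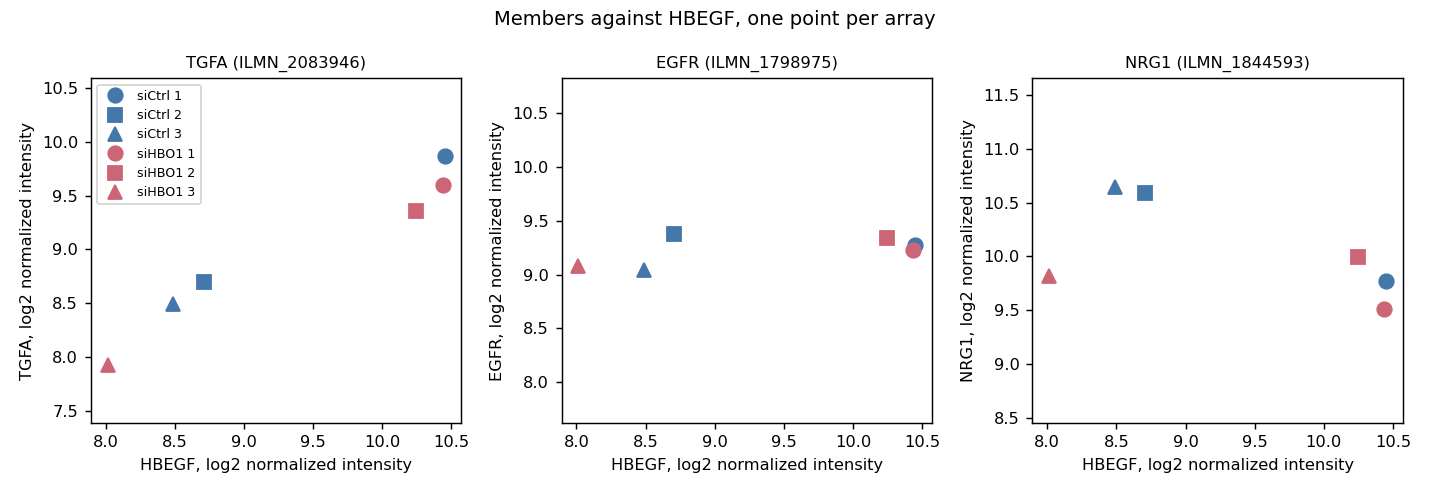
Log2 normalized intensity of TGFA, EGFR and NRG1 (vertical axes, equal span) against HBEGF (horizontal axis), 1 point per array, blue for siCtrl and red for siHBO1. TGFA goes up with HBEGF in 15 of 15 pairs of arrays, EGFR stays between 9.05 and 9.37, and NRG1 is highest on siCtrl 2 and siCtrl 3.

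The promoters of the ligands that ordered the arrays together, HBEGF and TGFA, are shown with those of EREG, detected on siCtrl 1 and siHBO1 1, and of EGFR, which was steady. Each run is the 300 bases from 250 before to 50 after a gene start in RefSeq (GRCh38.p14), 5′ to 3′ on the gene's strand. HBEGF lies at chr5:140346554-140346853 (minus strand), TGFA at chr2:70553777-70554076 (minus strand), EREG at chr4:74364895-74365194 (plus strand) and EGFR at chr7:55018767-55019066 (plus strand). TGFA and EGFR each have a second listed start, whose window is not shown. Capitals mark the GC box GGGCGG or its reverse complement in HBEGF, TGFA and EGFR, and the TATA box TATAAA in EREG.
HBEGF: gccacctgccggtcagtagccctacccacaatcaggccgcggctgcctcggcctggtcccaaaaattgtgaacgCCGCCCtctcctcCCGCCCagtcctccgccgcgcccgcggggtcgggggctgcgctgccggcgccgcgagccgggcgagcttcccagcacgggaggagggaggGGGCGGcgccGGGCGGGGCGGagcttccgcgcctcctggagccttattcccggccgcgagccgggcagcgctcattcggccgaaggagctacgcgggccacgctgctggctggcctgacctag
TGFA: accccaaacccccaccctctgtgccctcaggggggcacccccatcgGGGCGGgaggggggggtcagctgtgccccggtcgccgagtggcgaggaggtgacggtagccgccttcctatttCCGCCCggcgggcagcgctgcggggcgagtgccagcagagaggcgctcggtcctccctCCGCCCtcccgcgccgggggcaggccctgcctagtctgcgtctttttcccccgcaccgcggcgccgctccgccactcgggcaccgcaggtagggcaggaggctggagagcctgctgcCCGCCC
EREG: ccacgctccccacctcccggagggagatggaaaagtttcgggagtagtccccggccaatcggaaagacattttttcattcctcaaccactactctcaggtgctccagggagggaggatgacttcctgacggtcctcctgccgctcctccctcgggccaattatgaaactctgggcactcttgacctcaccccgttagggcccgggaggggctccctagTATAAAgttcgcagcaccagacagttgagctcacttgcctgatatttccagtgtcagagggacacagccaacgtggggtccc
EGFR: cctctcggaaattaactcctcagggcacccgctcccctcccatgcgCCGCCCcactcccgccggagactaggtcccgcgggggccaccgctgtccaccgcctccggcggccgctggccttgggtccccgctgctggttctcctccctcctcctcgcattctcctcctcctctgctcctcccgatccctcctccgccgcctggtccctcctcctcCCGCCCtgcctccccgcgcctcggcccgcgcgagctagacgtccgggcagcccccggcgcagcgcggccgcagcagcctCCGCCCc
The GC box occurs 5 times in the HBEGF window, including a pair that share a base, 4 times in TGFA, 3 times in EGFR and 0 times in EREG, and 45% of the 35116 promoters of this length hold at least 1. The TATA box begins at position -32 from the EREG start, and 11.5% of promoters hold one on either strand. The AP-1 motif TGANTCA (7.71% of promoters), the CRE motif TGACGTCA (1.85%) and an NF-kB motif (5.68%), each searched on both strands, had 0 matches in the 4 windows shown. The second windows of TGFA and EGFR, not shown, differ from these, with 0 GC boxes in both, and 2 AP-1 and 2 TATA box matches in that of EGFR. Of other members, the BTC window holds 1 GC box and 1 NF-kB match, and the ERBB4 window holds 1 GC box. A match or its lack describes only the letters in a window.

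The effect of the HBO1 siRNA was tested as siHBO1 against siCtrl in limma, with p-values adjusted over all 20744 tested probes. Of the 8 member probes 0 passed, where 0 of all tested probes did (0% called), and the smallest adjusted p over all probes was 0.186. Before adjustment, 0 of 8 member probes had p under 0.05 against 3.73% of all (774 probes), and groups without overlap were seen for 0 of 8 against 9.98% of all. The 8 probes had 4 positive and 4 negative changes with a median of 0.01, where 50.1% of all probes were positive and 49.9% negative, with a median of 0.00. In the exact permutation test of single probes, whose smallest possible two-sided p with 3 against 3 is 0.1, the member probes gave p from 0.3 to 1.

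NRG1 had the smallest p of the members. By ILMN_1844593 it was 10.33 ± 0.49 on siCtrl (SD, n = 3) and 9.77 ± 0.24 on siHBO1 (SD, n = 3), a log2 change of -0.56 (SE 0.25, 95% interval -1.13 to 0.00; limma p 0.0507, adjusted p 0.999), or 1.48-fold lower. The other tested NRG1 probe changed by -0.38 (SE 0.32, interval -1.10 to 0.34; limma adjusted p 0.999). Without siCtrl 1, the siCtrl array with low NRG1, these were -0.85 and -0.68, still not past the threshold (limma adjusted p 0.998). In that fit 2 of the member probes had an unadjusted limma p under 0.05, as did 616 of all 20744 tested probes. The change by ILMN_1737252 was -0.12 without siHBO1 1 and -0.20 without siCtrl 2. The interval of the first probe spans from no change to over 2-fold lower, so these arrays leave its size loosely bounded.

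For the EGFR ligands with wide spread, the comparison could show little. HBEGF was 9.22 ± 1.07 on siCtrl and 9.57 ± 1.35 on siHBO1 (SD, n = 3), a change of 0.35 (SE 0.68, 95% interval -1.20 to 1.90; limma adjusted p 0.999). Single arrays set its sign and size, which was -0.01 without siCtrl 3, -0.09 without siHBO1 1, 0.01 without siHBO1 2, 0.10 without siCtrl 2, 0.97 without siCtrl 1 and 1.13 without siHBO1 3. TGFA changed by -0.06 (SE 0.48, interval -1.14 to 1.02) and 0.04 (SE 0.45, interval -0.99 to 1.06) by its 2 probes. Both intervals reach about 2-fold in either direction. With an array left out, TGFA by ILMN_2083946 ran from -0.38 without siHBO1 1 to 0.46 without siHBO1 3. BTC changed by 0.28 (SE 0.28, interval -0.35 to 0.91), which was -0.01 without siHBO1 1.

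For EGFR the comparison was tighter. By ILMN_1798975 it was 9.23 ± 0.17 on siCtrl and 9.22 ± 0.13 on siHBO1 (SD, n = 3), a change of -0.01 (SE 0.16, 95% interval -0.39 to 0.36; limma adjusted p 0.999). The dimmer probe changed by 0.18 (SE 0.22, interval -0.31 to 0.67), which ran from 0.05 without siHBO1 1 to 0.37 without siHBO1 2. ERBB2, the partner receptor, read between 12.66 and 13.26 over the 6 arrays by its bright probe and changed by -0.04 (SE 0.16, interval -0.41 to 0.32; limma adjusted p 0.999).

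**Figure D4:**
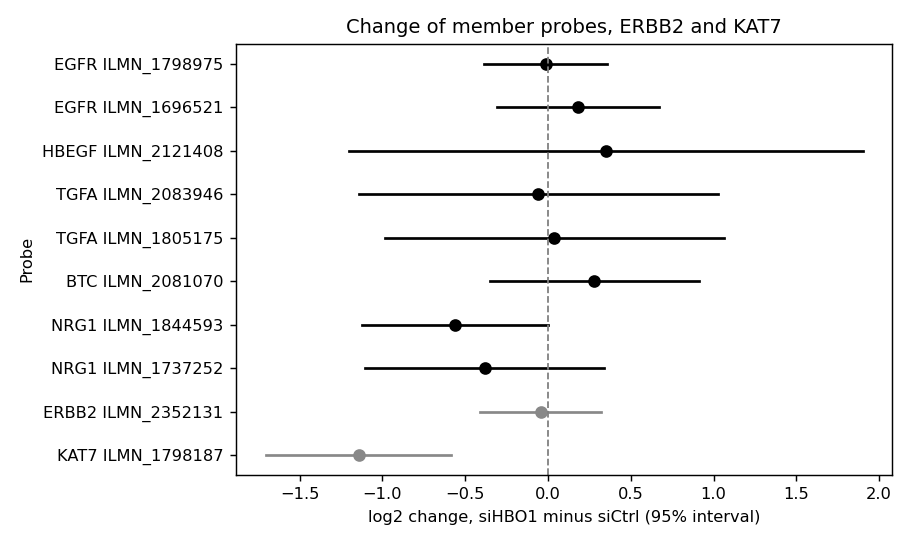
Log2 change of siHBO1 minus siCtrl with its 95% interval in limma for the 8 member probes (black) and, for scale, ERBB2 and the targeted KAT7 (grey); the dashed line marks no change. The intervals of HBEGF (-1.20 to 1.90) and TGFA are the widest, and that of NRG1 by ILMN_1844593 ends at 0.00.

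Genes acting around the receptors were followed in 5 lists, with the brightest kept probe of each gene. Of 12 measured genes of ligand shedding and trafficking, 0 were called in either direction, with 6 positive and 6 negative and a median change of -0.00. TIMP1, a metalloprotease inhibitor, was at 0.17 (SE 0.10) and ADAM15 at 0.15 (SE 0.10). ADAM17, the main protease that releases TGFA and HBEGF, was at -0.03 (SE 0.17). Of 26 measured genes of receptor-proximal signalling, 0 were called, 15 were positive and the median was 0.02, with the adaptor SHC1 at 0.31 (SE 0.10) and STAT3 at 0.29 (SE 0.15). SHC1 was the single gene of these lists with an unadjusted p under 0.05 (limma p 0.0165, adjusted p 0.999). Of 22 receptor inhibitors and degradation genes, 0 were called, 12 were positive and the median was 0.04, with the endocytic adaptor SH3KBP1 at 0.23 (SE 0.10) and the RAS effector RIN1 at 0.54 (SE 0.29).

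Of 19 ERK target and feedback genes, 0 were called, with 16 positive and a median of 0.21, against 50.1% positive and a median of 0.00 over all probes. IER3 was at 0.37 (SE 0.21) and the ETS factor ETV5 at 0.51 (SE 0.38). Single arrays set this median, which was -0.03 without siHBO1 1, -0.01 without siCtrl 3, 0.05 without siCtrl 2, 0.09 without siHBO1 2, 0.56 without siHBO1 3 and 0.60 without siCtrl 1. Of 10 measured cytokine genes, 0 were called, with 7 positive and a median of 0.24, which ran from -0.24 without siHBO1 1 to 0.73 without siCtrl 1. TNF was at 0.61 (SE 0.38) and IL11 at -0.32 (SE 0.46). Of the other genes of the family with a probe, EGF, NRG2 and NRG3 were detected on 0 arrays and NRG4 on 2.

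The ERK targets and the cytokines differed between the arrays in nearly the order of HBEGF and TGFA. The mean of the 10 cytokine genes was 10.07, 8.37 and 8.29 on siCtrl 1 to 3 and 9.87, 9.36 and 7.98 on siHBO1 1 to 3, and 15 of 15 pairs of arrays were ordered as by HBEGF. The mean of the 19 ERK targets deviated from its mean over all arrays by 0.56, -0.41 and -0.42 on the siCtrl arrays in order and by 0.57, 0.27 and -0.57 on the siHBO1 arrays, with 14 of 15 pairs in the order of HBEGF. Of these 19 genes, 10 matched HBEGF in at least 13 of 15 pairs, as did 6 of the 10 cytokine genes, where 6.92% of all tested probes did. In the other lists 4 of 22 receptor inhibitors, 4 of 26 receptor-proximal genes and 1 of 12 shedding genes did. The cytokine list was chosen with earlier results known in which arrays of a group differed in cytokine genes, so its share is no test. The ERK list and the others were also chosen with earlier results of these data known, so their shares are no test either. The lists hold 1 probe per named gene, while all tested probes include several for some genes and probes with no symbol. The array means of the shedding, receptor-proximal and inhibitor lists spanned 0.12, 0.11 and 0.16 log2, against 1.14 for the ERK targets and 2.09 for the cytokines. These means hold members that went opposite ways, such as, chosen after their values were seen, the receptor inhibitors ERRFI1, with 15 of 15 pairs in the order of HBEGF and a range of 1.26 log2, and CBLB, with 3 of 15 and a range of 1.31. ADAM19, the shedding gene that matched HBEGF, did so in 13 of 15 pairs with a range of 1.37.

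Single ERK targets, chosen after their values were seen, show the pattern. SPRY4, a Sprouty inhibitor of RAS signalling, read 8.42, 6.34 and 6.92 on siCtrl 1 to 3 and 8.48, 8.42 and 6.28 on siHBO1 1 to 3. DUSP6, an ERK phosphatase, read 7.85, 6.33 and 6.64 on siCtrl 1 to 3 and 7.61, 7.65 and 6.27 on siHBO1 1 to 3. Both were high on the 3 arrays on which HBEGF was high. SPRY4 had 12 of 15 pairs in the order of HBEGF, short of the 13 used above, and DUSP6 had 13. EGR1 and JUNB, early targets of the pathway, did not share it, with 4 and 3 of 15 pairs in the order of HBEGF.

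**Figure D5:**
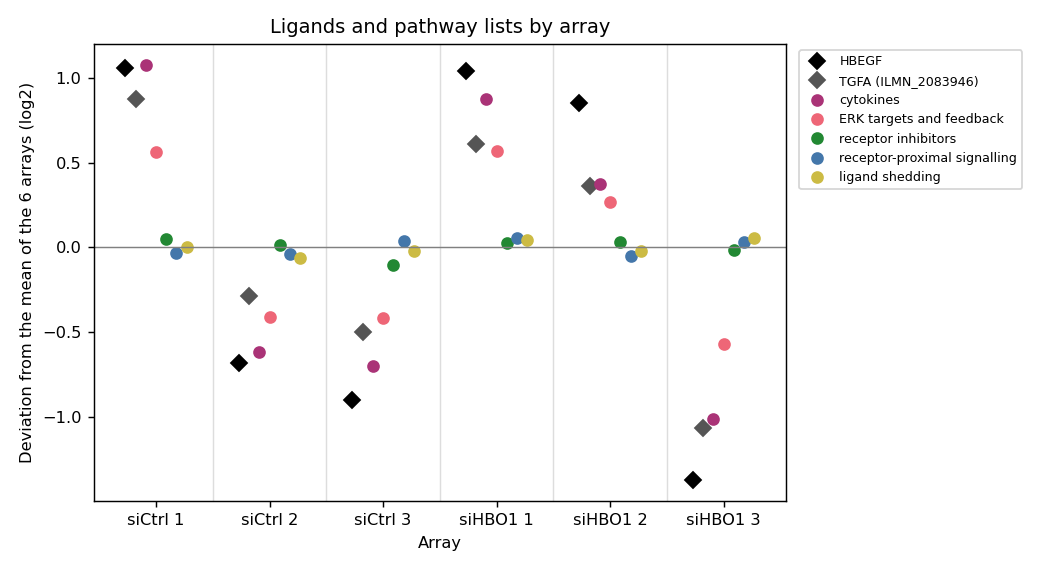
Deviation from the mean of the 6 arrays (log2) for HBEGF and TGFA (diamonds) and for the mean of 5 gene lists (circles) on each array. Cytokines and ERK targets lie above 0 on siCtrl 1, siHBO1 1 and siHBO1 2 together with both ligands, while the means of the other 3 lists span at most 0.16.

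The mean signal per array was 713, 730 and 674 on siCtrl 1 to 3 and 643, 650 and 744 on siHBO1 1 to 3. It was thus highest on siHBO1 3, where HBEGF was lowest, and lowest on siHBO1 1, where HBEGF was high. The relation of mean signal to HBEGF was not tested. Both collagen markers detected on all 6 arrays, COL1A1 and COL1A2, were highest on siHBO1 3, where HBEGF was lowest. The summed signal of the 5 fibroblast markers was 1098, 2090 and 1754 on siCtrl 1 to 3 and 1154, 1244 and 3732 on siHBO1 1 to 3. COL1A1 read 7.85 on siCtrl 1 and 10.89 on siHBO1 3. COL3A1 and LUM were each detected on 1 array, and they too were highest on siHBO1 3 (6.92 and 6.01). DCN was detected on 2 arrays and ran from 4.96 to 5.34, with its highest value on siHBO1 1. The summed signal of the 5 leukocyte markers ran from 789 to 918, and PTPRC and CD3E were detected on 0 arrays. The part of the fibroblast markers in the pattern of HBEGF and TGFA was not tested.

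Among 10611 other named genes detected on all 6 arrays, those most like TGFA (ILMN_2083946) by Pearson r over the 6 arrays were RPF2, CMTM7 and PLIN2, with r from 0.993 to 0.995, and 471 genes had r above 0.9. For EGFR (ILMN_1798975) they were SLC11A2, EIF3L and UTP6 (0.970 to 0.972), with 59 genes above 0.9. These genes were picked as the highest of many over 6 arrays, so their r is high by construction and carries no test. The TGFA probe also had the same 3 arrays on top as HBEGF, so a high r with it can come from that difference between arrays alone.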

How the data were processed

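RNA was hybridised to Illumina bead arrays, 3 per group. Per the file headers, the deposited table holds an average bead intensity for every probe and array on a linear scale, and beside it a detection p-value, which moves in 770 steps. A second table deposited by the authors holds processed log2 values, used as an alternative. The submitters' processing notes list GenomeStudio and lumi, without the settings. Of 47314 probes, 30110 have 1 symbol, 8 several and 17196 none.

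Background correction and quantile normalization of the intensities used neqc (offset 16) in limma 3.58.1 (R 4.3.3). Probes with detection p under 0.05 on at least 3 of 6 arrays (20744) entered lmFit and eBayes (trend on intensity, no covariates, two-sided tests), with Benjamini-Hochberg adjustment over all of them at 0.05. The fit was tested on simulated data with noise drawn independently for each probe and array. That test does not cover differences between arrays shared by many genes, such as those seen here. Arrays were taken to fall into 2 sets where the widest gap exceeded 0.5 log2 and the range on either side, a rule chosen after seeing the data. All member probes are named, with KAT7, ERBB2, the 2 genes of smallest p per list and the 3 genes most like EGFR and TGFA. Those most like HBEGF and NRG1 are not given, since their arrays fall into 2 sets. ADAM17, ADAM19, ERRFI1, CBLB, SPRY4, DUSP6, EGR1 and JUNB were named after their values were seen. The members and lists were chosen with earlier results of these data known. The number of arrays limits the precision. Alternatives covered background, scaling, filter, probe choice, variance model, array weights, replicate block and each array left out.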

Additional observations from a re-analysis of the deposited data

How the results depend on the processing

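Over 16 alternatives to the fit, 0 member probes were called in any. Array weights called 1 probe of all and the replicate block 4, none of them a member, and the others called 0. With an array left out the count of all probes called was 0 throughout. For the pairing, arrays with the same number had deviations from their group means that correlated at 0.56, 0.02 and 0.46. For siCtrl and siHBO1 arrays of unlike numbers the correlations ran from -0.55 to 0.31. The labels name nothing that arrays of the same number share, so a number was treated as a name in the main fit. Whether such arrays are paired was not tested. Under the replicate block the smallest adjusted p of a member was 0.730 (limma), shared by both tested NRG1 probes. These were the 2 members at an unadjusted limma p under 0.05 there, and likewise with array weights (limma adjusted p 0.657). Over all alternatives 0 to 2 members had an unadjusted p under 0.05. The count of all probes at an unadjusted p under 0.05 was 1409 under the replicate block and 1573 with array weights, against 774 in the main fit. NRG1 was negative in 16 of 16 alternatives by ILMN_1844593 (-0.85 to -0.40) and in 15 of 15 by ILMN_1737252 (-0.71 to -0.12). The alternatives of filter, probe choice, variance model and replicate block cannot alter a log2 change, so they add nothing to these counts. Changes of other members turned sign in 14 cases. EGFR by ILMN_1798975 ranged from -0.11 to 0.057 with an array left out, HBEGF from -0.086 to 1.13, BTC from -0.0099 to 0.50, TGFA by ILMN_2083946 from -0.38 to 0.46 and TGFA by ILMN_1805175 from -0.28 to 0.48. TGFA by ILMN_1805175 was -0.040 under median scaling, which moved the median of all probes to -0.05, and TGFA by ILMN_2083946 was 0.30 with array weights. The cause was not tested. Without background correction the change of BTC shrank to 0.08 and that of EGFR by ILMN_1696521 to 0.07. The 9 correlated pairs had 0 calls in each of 6 alternatives, 5 pairs being left with detection on all 6 arrays. HBEGF and TGFA by ILMN_2083946 ordered 100% of array pairs alike in all 12 alternatives. Leaving an array out, or requiring detection on all 6 arrays, could not change a full match, so those alternatives add nothing here. Correlations with the cytokine mean were not run, since its arrays fall into separate sets, and a block for slides was not fitted because the labels give none.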
